A study of Rattus norvegicus with 4 samples.

Results

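The genes described here are 36 genes of DNA repair and of the checkpoint that halts the cell cycle after DNA damage, with the alkyltransferase gene Mgmt among them, in rat striatum 16 h after focal irradiation. Probes were taken whose platform annotation gives exactly 1 gene with one of these symbols, including older symbols of the same gene such as Mre11a for Mre11 and H2afx for H2ax. This gave 40 probes for 30 of the 36 genes, out of 43628 probes and 14878 named genes. The other 6 genes, Atr, Rad54l, Prkdc, Ercc2, Ddb2 and Msh6, had no probe named in this way and are not analysed here.

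The study used 4 adult male Wistar rats, an outbred laboratory strain. Irradiated rats were anaesthetised and fixed in a stereotactic frame, and a Leksell gamma knife, which crosses many thin gamma-ray beams at 1 point, gave 1 striatum a central maximum of 60 Gy in 30 min through a 4 mm collimator. The first group is the irradiated left striatum, with control rats' left striatum as its comparison. The second is the un-irradiated right striatum from the irradiated rats, with control rats' right striatum as its comparison. The labels call the control tissue control without saying whether those rats were anaesthetised or framed, and although striata were dissected rat by rat, they do not say how many of the 4 rats stand behind each RNA. Each side was hybridised to 2 two-colour Agilent rat arrays: on array 1 the RNA from the irradiated rat carried the red dye Cy5, and on array 2 it carried the green dye Cy3. The labels give the 2 arrays of a swap 1 shared replicate number. They were counted as 1 replicate per side, which allows neither a p-value nor a standard deviation.

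Cells repair DNA by several routes that differ in the lesion they handle. A methyl or other alkyl group on guanine is taken off directly by the Mgmt protein, damaged bases and single-strand breaks go through base excision repair, and bulky adducts go through nucleotide excision repair. Breaks of both strands, the most toxic lesion of ionising radiation, are sensed by the Mre11-Rad50-Nbn complex, which activates the kinase Atm, and are then closed by end joining in any phase of the cell cycle or by homologous recombination, which needs a sister chromatid and so is largely limited to dividing cells. Most of this response acts on proteins that are already present, and transcript levels show only part of it.

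All values are log2 of RNA from the irradiated rat over RNA from the control rat, with array 2 given the opposite sign to undo the dye swap, and averaged over the probes of a gene. The value after ± is the distance of either array from the mean of the 2, a technical spread that holds no variation between animals. A gene counted as higher or lower if the 2 arrays of a side were both beyond 1.5-fold (0.585 on this scale) in 1 direction. Before the sign was changed, the deposited ratios moved together within a swap: named probes correlated between the arrays of a swap with r = 0.264 for the left side and r = 0.243 for the right side, and all probes with r = 0.743 and r = 0.666. In 7 of the 30 genes, Apex1, Atm, Brca2, Chek1, Fancd2, Rrm2b and Xrcc5, red exceeded green on all 4 arrays whichever RNA was red, as in 17.7% of all genes. In Brca1 red was below green on all 4 arrays, as in 13.3% of all genes. The deposited table does not give its direction. If array 2 had already been turned before deposit, Mgmt would stand at 0.03 on the left side and 0.22 on the right side, and Brca2 and Rrm2b would pass for the left side in place of Mgmt and Fignl1. The files give ratios without intensities, so levels are unknown and the tissue label could not be checked against its markers.

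Of the 30 repair and checkpoint genes, Mgmt and Fignl1 were higher in the irradiated left striatum than in control left striatum, where 1.18% of all genes were, and 0 were lower, where 1.03% of all genes were. In the un-irradiated right striatum Mgmt was higher than in control right striatum, where 1.71% of all genes were, and again 0 were lower, where 1.46% of all genes were. The 36 genes were chosen with earlier results of these data known. These counts therefore do not show that repair genes passed more often than other genes. Most of the others lay close to control: 20 of 30 stayed within 1.5-fold on both left arrays, against 72.2% of all genes, and 19 of 30 on both right arrays, against 65.7%. The median over the 30 genes was 0.08 on the left side and -0.04 on the right side, beside medians of 0.0011 and -0.01 over all genes. The plot of every gene on every array shows these values by role.

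**Figure D1:**
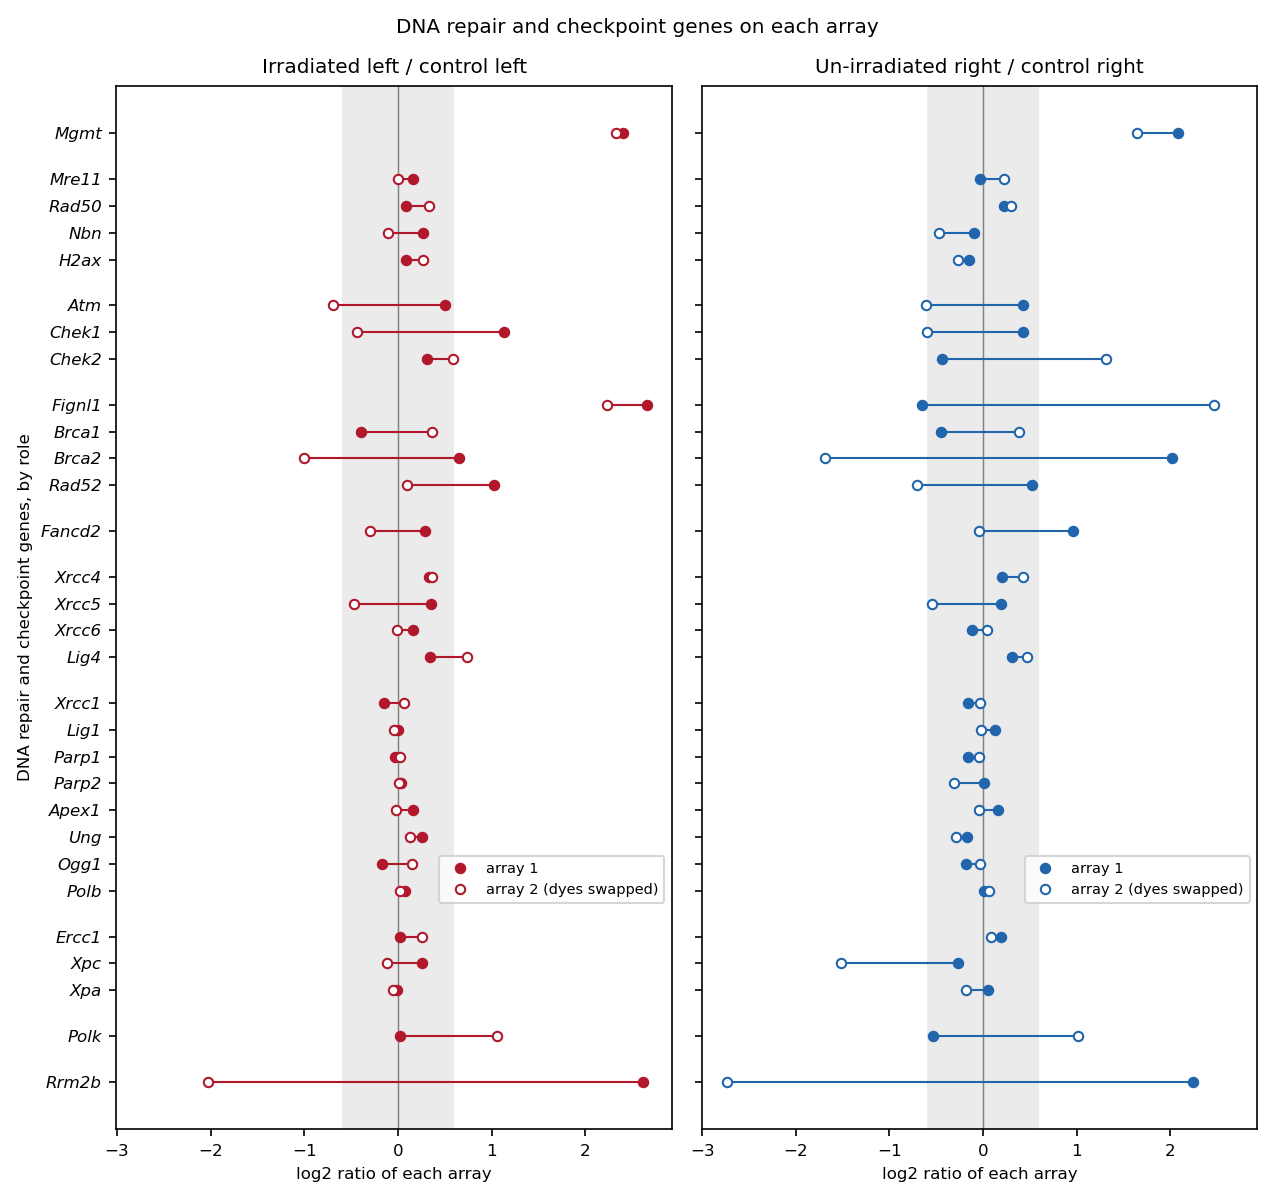
Log2 ratio of RNA from irradiated rats over control RNA for 30 DNA repair and checkpoint genes, ordered by role, with array 1 as filled and array 2 as open points joined by a line; the left panel is the irradiated left side, the right panel the un-irradiated right side, and the grey band marks 1.5-fold. Mgmt lies outside the band on all 4 arrays, between 1.64 and 2.40, while Fignl1 does so in the same direction on the left arrays alone.

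Mgmt encodes the methyltransferase that moves an alkyl group from guanine onto its own cysteine and is used up in the process. Its 1 probe, for a RefSeq mRNA, read 2.40 on array 1 and 2.33 on array 2 of the left side, and 2.08 on array 1 and 1.64 on array 2 of the right side. All 4 arrays were far above 0, and both left arrays were above both right arrays. The mean was 2.37 ± 0.03 on the left, a 5.15-fold difference from control that ranked 11 among 14878 genes, and 1.86 ± 0.22 on the right, a 3.64-fold difference that ranked 35. These folds assume a log10 table. Read as log2, Mgmt would stand at 0.71 on the left side and at 0.56 on the right side, where it would no longer pass. The left value exceeded the right by 0.32 on array 1 and by 0.69 on array 2. The mean gap of 0.50 ± 0.19 was not past 1.5-fold on both arrays, so Mgmt was not counted as differing between the sides. On the same arrays 6 of 17 targets of p53 were higher on the left and 5 of 17 on the right, and whether Mgmt moved with them for a shared reason was not tested.

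Fignl1 encodes an ATPase of the AAA family that is needed for homologous recombination. Its 1 probe read 2.65 and 2.23 on the left arrays, and -0.66 and 2.46 on the right arrays. Both left arrays and right array 2 were high, and right array 1 was below 0. The left mean was 2.44 ± 0.21, a 5.44-fold difference that ranked 7 among all genes and stood above that of Mgmt by less than the distance between the 2 arrays of Fignl1. With array 2 taken as already turned it would be 0.21 on the left side and -1.56 on the right side, and with the table read as log2 it would be 0.74 and 0.27. The right mean of 0.90 ± 1.56 has no direction that the 2 arrays share. Left minus right was 3.31 on array 1 and -0.23 on array 2, which likewise gives no direction.

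The 250 bases before the RefSeq transcription start of these 2 genes are shown because they are the 2 that passed on the left, from RefSeq's GRCr8 assembly, 5′ to 3′ on the strand of the gene. Capitals mark GC boxes (GGGCGG or its complement CCGCCC), sites of the kind that the factor Sp1 binds. The Mgmt stretch is chr1:201140582-201140831 on the plus strand and the Fignl1 stretch is chr14:90590819-90591068 on the minus strand.
Mgmt: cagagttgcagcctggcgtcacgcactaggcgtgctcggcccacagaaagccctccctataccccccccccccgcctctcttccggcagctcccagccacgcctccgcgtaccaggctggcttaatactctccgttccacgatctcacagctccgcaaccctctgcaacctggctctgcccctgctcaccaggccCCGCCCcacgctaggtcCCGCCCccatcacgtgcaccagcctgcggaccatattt
Fignl1: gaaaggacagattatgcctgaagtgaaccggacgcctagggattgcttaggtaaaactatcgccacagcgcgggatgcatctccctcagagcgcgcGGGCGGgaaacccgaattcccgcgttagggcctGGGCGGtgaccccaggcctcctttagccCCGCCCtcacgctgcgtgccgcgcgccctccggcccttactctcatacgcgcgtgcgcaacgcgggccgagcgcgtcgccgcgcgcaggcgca
Both stretches are rich in G and C, with 66.4% in Mgmt and 67.2% in Fignl1, and hold 17 and 34 CpG dinucleotides. The Mgmt stretch has 2 GC boxes and the Fignl1 stretch has 3.

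These features are shared by most of the repair genes. Promoters were found for 25 of the 30 genes by gene identifier. None was found for Nbn, Chek2, Polb, Xpa and Rrm2b, so the shares given here leave these genes out. A GC box on either strand was held by 17 of the 25 (68%), and by 32.4% of 27457 RefSeq promoters of the same length. The values that follow are also for the 25. The median GC content of the 25 was 61.2% against 52% for all promoters, with a range of 40.8% in Mre11 to 69.6% in Brca2. Their median CpG count was 19 against 6. The 10-base p53 half-site, searched on both strands, was present in Rad50 and H2ax, 8% of the 25, against 6.56% of all promoters. It was in neither printed stretch, which says only that these letters are not in this window.

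**Figure D2:**
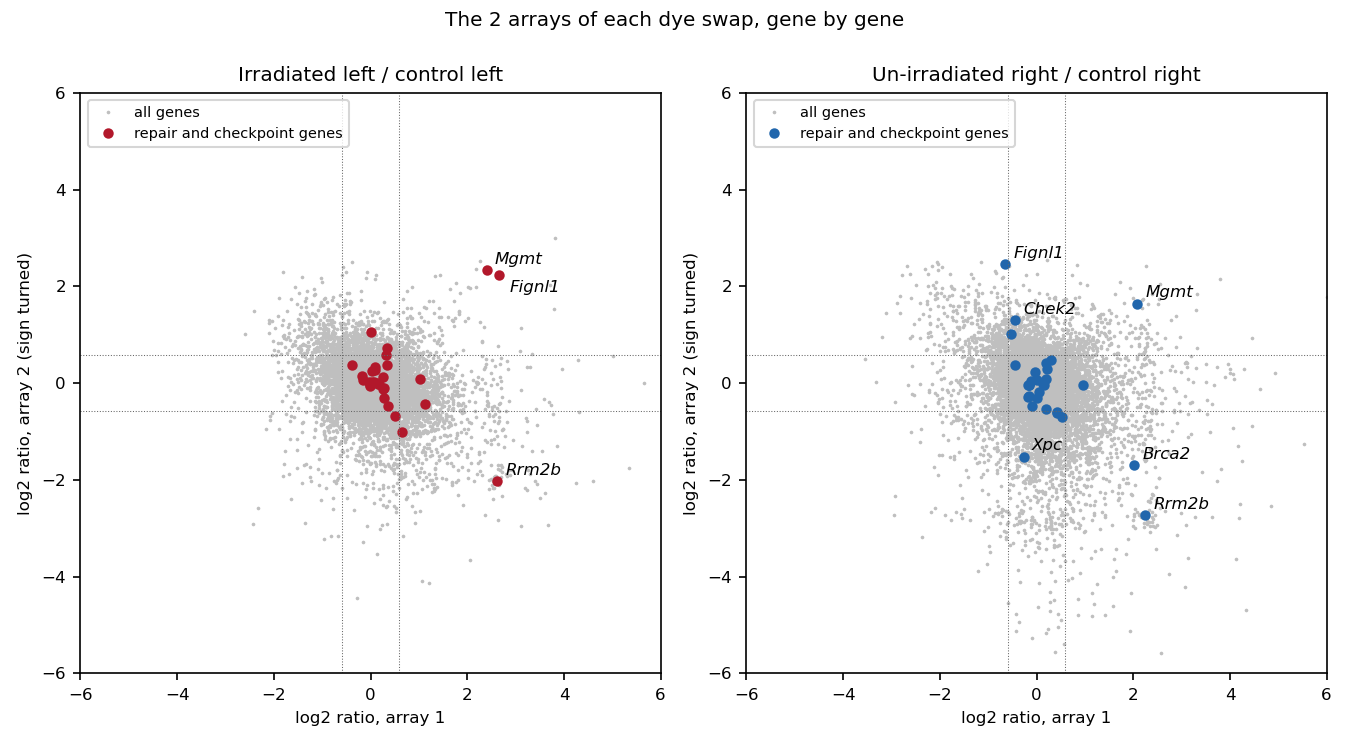
Log2 ratio on array 2, with its sign turned, against that on array 1 for each of 14878 genes (grey) and for the repair and checkpoint genes (coloured), with dotted lines at 1.5-fold; the left panel is the irradiated left side and the right panel the un-irradiated right side. Mgmt sits in the upper right corner on both sides, whereas Rrm2b lies in the lower right corner, at 2.62 and -2.02 on the left arrays and 2.24 and -2.74 on the right arrays.

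The genes that sense breaks of both strands stayed within 1.5-fold of control on all 4 arrays. Most genes did so on each side, 72.2% on both left arrays and 65.7% on both right arrays. The share over all 4 arrays together was not counted. Rad50, the ATPase that tethers broken ends, had the highest mean of the group on both sides, with 0.08 and 0.33 on the left arrays and 0.22 and 0.30 on the right arrays. Mre11, the nuclease of the same complex, had the lowest left mean and read 0.16 and -0.0041 on the left arrays, and -0.03 and 0.22 on the right arrays. Nbn (nibrin), the third subunit, read 0.27 and -0.10 on the left arrays, and -0.09 and -0.47 on the right arrays, the lowest right mean of the group. The 3 subunits overlapped on the left arrays, while on the right both arrays of Nbn, averaged over its 2 probes, were below those of Rad50 and Mre11. That order rests on the Nbn probe that is not for a RefSeq mRNA, with a right mean of -0.56. The RefSeq mRNA probe of Nbn read 0.06 and -0.06 on the right arrays, with a mean of -0.0039. By that probe Nbn was above Mre11 on right array 1 and did not have the lowest right mean of the group. H2ax, the histone variant that Atm phosphorylates around a break, averaged 0.18 ± 0.09 on the left and -0.21 ± 0.06 on the right. The group had medians of 0.13 on the left side and -0.06 on the right side.

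The checkpoint kinases differed more between the arrays of a swap than between the sides. Atm, the kinase that breaks activate, read 0.50 and -0.69 on the left arrays, and 0.43 and -0.61 on the right arrays. Chek1, the effector kinase of replication stress, read 1.14 and -0.44 on the left arrays, and 0.42 and -0.59 on the right arrays. In both genes array 1 was above 0 and array 2 below 0 on either side, and neither passed. Chek2, the effector kinase downstream of Atm, had other signs, with 0.31 and 0.59 on the left arrays, and -0.44 and 1.31 on the right arrays. It did not pass on either side. The median of the 3 kinases was 0.35 on the left side and -0.09 on the right side. On single left arrays it was 0.50 and -0.44, so the left median has no sign that both arrays share.

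Homologous recombination held the widest spread of values. Rad52, an annealing protein that in mammals backs up the main pathway, read 1.03 and 0.09 on the left arrays, and 0.52 and -0.71 on the right arrays. It was the gene with the highest left mean after Fignl1, at 0.56 ± 0.47, and had the lowest right mean of its group, at -0.10 ± 0.61. Brca2, a mediator of strand exchange, read 0.65 and -1.0 on the left arrays, and 2.02 and -1.69 on the right arrays. It was past 1.5-fold in opposite directions on the 2 arrays of both sides, and its left mean of -0.18 ± 0.83 was the lowest of the group. Brca1, which promotes the trimming of broken ends, averaged -0.01 ± 0.38 on the left and -0.03 ± 0.41 on the right. Fancd2, the crosslink repair protein that works with this pathway, averaged -0.0085 ± 0.29 on the left and 0.46 ± 0.50 on the right.

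End joining, the route open to cells that do not divide, had 0 of 4 measured genes that passed. Of all genes, 1.18% passed upward and 1.03% downward on the left, and 1.71% and 1.46% on the right. A count of 0 among 4 genes therefore says little about this route. Lig4 and Xrcc4 were above 0 on all 4 arrays. Lig4, the ligase that seals the break, read 0.35 and 0.73 on the left arrays, and 0.31 and 0.47 on the right arrays. Its 3 probes lay between 0.50 and 0.58 for the left side and between 0.29 and 0.57 for the right side. Xrcc4, the scaffold that holds this ligase, averaged 0.35 ± 0.02 on the left and 0.31 ± 0.11 on the right. Both partners had means under 1.5-fold for either side. The Ku subunits, which clamp onto the ends first, lay lower, and Xrcc6 (Ku70) averaged 0.08 ± 0.09 on the left side and -0.04 ± 0.08 on the right side. Xrcc5 (Ku80), the lowest of the group on both sides, read 0.35 and -0.47 on the left arrays, and 0.19 and -0.54 on the right arrays.

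Being above 0 on all 4 arrays was seen in 6 of the 30 genes, Ercc1, Lig4, Mgmt, Polb, Rad50 and Xrcc4, and in 8.78% of all genes. Being below 0 on all 4 was seen in 0 of the 30 and in 8.66% of all genes. Among 101 further repair genes, described below, 8 (7.92%) were above 0 on all 4 arrays and 9 (8.91%) below. Both shares of this longer list were near those of all genes. These counts rest on signs alone and include values close to 0, such as Polb with means of 0.05 ± 0.03 for the left side and 0.04 ± 0.02 for the right side.

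In base excision and single-strand break repair all 8 genes stayed within 1.5-fold on all 4 arrays, as the break-sensing genes did. Of all genes, 72.2% did so on both left arrays and 65.7% on both right arrays. The median distance of an array from the mean was 0.05 on the left and 0.07 on the right. These were the smallest among groups with 3 or more measured genes. Ung, which cuts uracil out of DNA, had the highest left mean and the lowest right mean, with 0.25 and 0.13 on the left arrays, and -0.17 and -0.29 on the right arrays. Apex1, which nicks the strand at a lost base, had the highest right mean and read 0.16 and -0.02 on the left arrays, and 0.16 and -0.05 on the right arrays. Xrcc1, the scaffold of single-strand break repair, had the lowest left mean and read -0.15 and 0.07 on the left arrays, and -0.16 and -0.03 on the right arrays. None of these 3 was more than 0.3 from control on any array. The strand-break sensors Parp1 and Parp2, the ligase Lig1, the gap-filling polymerase Polb and Ogg1, which removes oxidised guanine, had means between -0.02 and 0.05 on the left and between -0.15 and 0.06 on the right. The group had medians of 0.01 on the left side and -0.10 on the right side.

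In nucleotide excision repair the measured genes were Xpc, Xpa and Ercc1. Xpc, the sensor of distorted DNA, read 0.26 and -0.11 on the left arrays, and -0.26 and -1.52 on the right arrays. Its right mean of -0.89 ± 0.63 was the lowest of all 30 genes, but right array 1 was within 1.5-fold, so Xpc was not counted as lower. Ercc1, a subunit of the nuclease that cuts on one side of the lesion, had the highest mean of the group on both sides and read 0.02 and 0.26 on the left arrays, and 0.19 and 0.09 on the right arrays. Xpa, which checks the lesion before incision, had the lowest left mean and read -0.01 and -0.05 on the left arrays, and 0.05 and -0.18 on the right arrays. Apart from right array 2 of Xpc, the 3 genes lay within 0.3 of control on every array. The group had medians of 0.07 on the left side and -0.06 on the right side.

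Polk and Rrm2b stood alone in their roles. Polk, a polymerase that copies past lesions, read 0.02 and 1.06 on the left arrays, and -0.54 and 1.01 on the right arrays, with means of 0.54 ± 0.52 and 0.24 ± 0.78. Rrm2b, the ribonucleotide reductase subunit that p53 induces in human cells to supply nucleotides for repair, read 2.62 and -2.02 on the left arrays, and 2.24 and -2.74 on the right arrays. Red exceeded green more than 4-fold on each of these 4 arrays, and the means of 0.30 ± 2.32 on the left and -0.25 ± 2.49 on the right have no direction that the arrays share. Brca2 and Rrm2b on the left, and Brca2, Fignl1 and Rrm2b on the right, were past 1.5-fold in opposite directions on the 2 arrays, as were 5.71% of all genes on the left and 7.45% on the right.

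**Figure D3:**
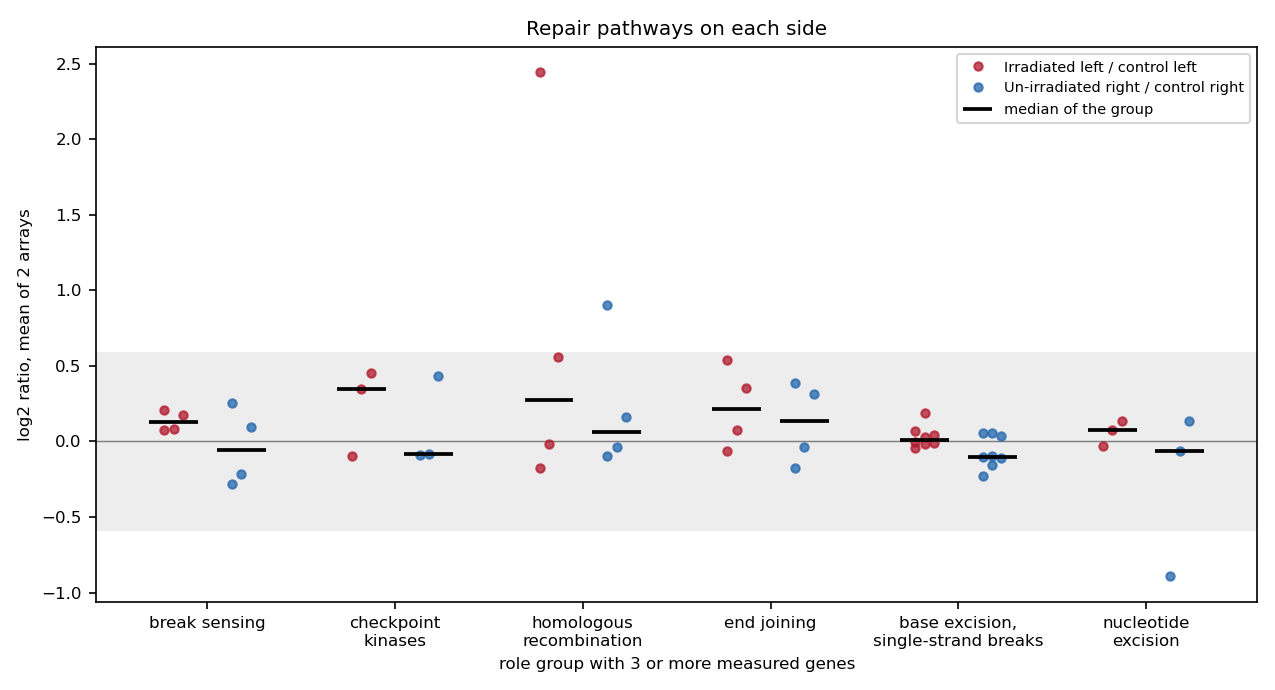
Mean log2 ratio of each gene (points) and the median of its role group (black bars) for the 6 groups with 3 or more measured genes, with the irradiated left side in red, the un-irradiated right side in blue and a grey band at 1.5-fold. Group medians lie between 0.01 and 0.35 on the left and between -0.10 and 0.14 on the right, and Fignl1 at 2.44 stands apart from the rest of homologous recombination.

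Set side by side, the group medians on the left ran from 0.01 in base excision repair through 0.07 in nucleotide excision repair, 0.13 in break sensing, 0.22 in end joining and 0.27 in homologous recombination to 0.35 in the checkpoint kinases. On the right they ran from -0.10 in base excision repair, -0.09 in the checkpoint kinases, -0.06 in nucleotide excision repair and -0.06 in break sensing to 0.07 in homologous recombination and 0.14 in end joining. The gap between the highest and the lowest group was 0.34 on the left and 0.24 on the right. Both gaps were of the size of the distance between arrays in several genes, and on array 1 alone the left gap was 0.82 and on array 2 alone 0.67. Base excision repair was lowest on both sides when the arrays were averaged, but not on array 2 alone. There its medians were 0.02 on the left and -0.04 on the right, above -0.44 and -0.59 in the checkpoint kinases. The order of the groups was not tested, and groups other than base excision repair hold 3 or 4 genes each.

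Genes with several probes give a second view of the same transcripts. Of the 30 genes, 9 had 2 or more probes and 21, Mgmt and Fignl1 among them, had 1. The probes of a gene lay more than 1.5-fold apart in Xrcc5 on the left, at -0.38 and 0.25, where the lower one is not for a RefSeq mRNA. They did so in Atm on the right, at -0.41 and 0.22, and in Brca2 on the right, at -0.43 and 0.76. In these 3 genes the probes fell on opposite sides of 0, so their gene means of -0.06 for Xrcc5 on the left, -0.09 for Atm on the right and 0.16 for Brca2 on the right average values that disagree. The probes of Lig4, Parp1, Parp2, Polb and Rad52 lay within 0.29 of each other on both sides.

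**Figure D4:**
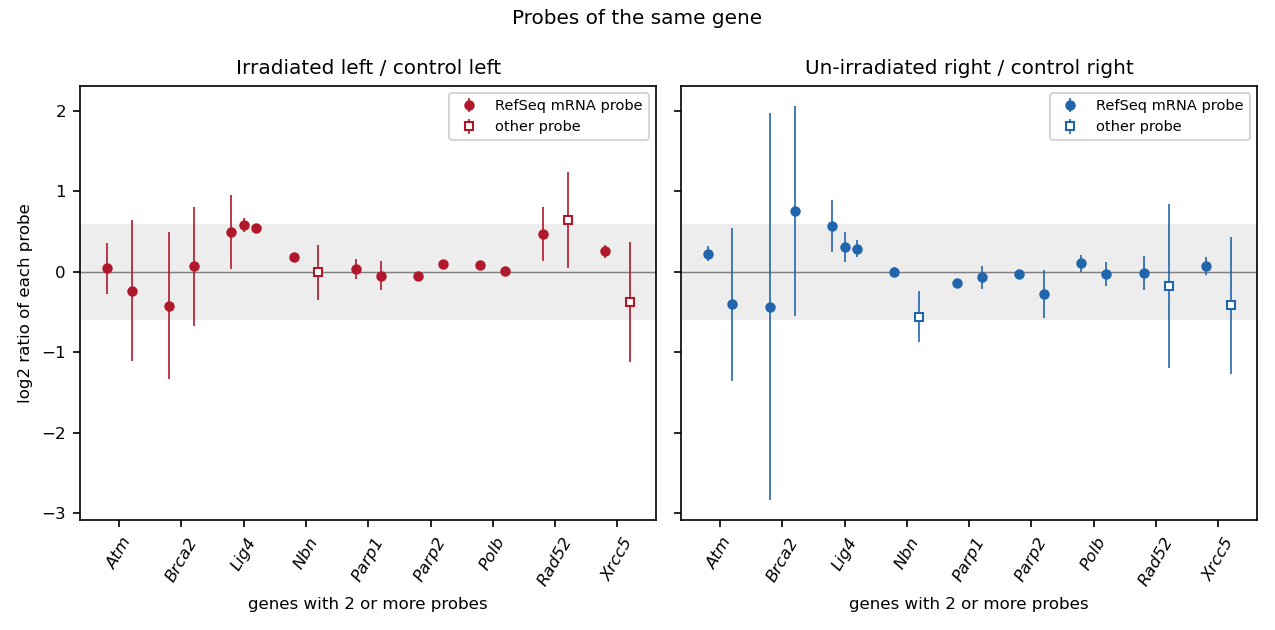
Log2 ratio of each probe for the 9 genes with 2 or more probes, as the mean of the 2 arrays with bars reaching to each array; filled circles are RefSeq mRNA probes, open squares are other probes, and the irradiated left side stands left of the un-irradiated right side. The 3 probes of Lig4 lie together at 0.50 to 0.58 on the left, whereas the probes of Brca2 lie at -0.43 and 0.76 on the right.

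The sides were compared by subtracting right from left between arrays of the same dye orientation. None of the 30 genes was past 1.5-fold in the same direction on both arrays, neither higher on the left, where 2.59% of all genes were, nor lower, where 2.26% were. The median difference was 0.10 over the 30 genes and 0.02 over all genes. By the mean of the arrays, 20 of 30 genes were above control on the left, against 50.2% of all genes, and 14 of 30 on the right, against 47.9%. The left value exceeded the right in 23 of 30 genes, against 52.5% of all genes, and if array 2 had already been turned before deposit this count would be 13. Both sides draw on the 4 rats of the study, but how many of them stand behind each RNA is not stated. Most of the differences between the sides were smaller than 1.5-fold.

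Rad52, Ung and Xpc were the 3 genes whose difference was past 1.3-fold in the same direction on both arrays, although none passed at 1.5-fold. Left minus right was 0.51 and 0.80 on arrays 1 and 2 for Rad52, 0.42 and 0.42 for Ung, and 0.53 and 1.41 for Xpc. All 3 were higher on the left on both arrays, with 1 or both of the arrays under 1.5-fold. The arrays lay close together for Ung and far apart for Xpc. Nbn had a smaller difference that was nearly the same on both arrays, at 0.36 on array 1 and 0.37 on array 2. Its 2 probes gave unlike gaps, however. The RefSeq mRNA probe averaged 0.18 on the left and -0.0039 on the right, and the other probe -0.0083 and -0.56. Fancd2 had the lowest mean difference, with -0.68 on array 1 and -0.26 on array 2.

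**Figure D5:**
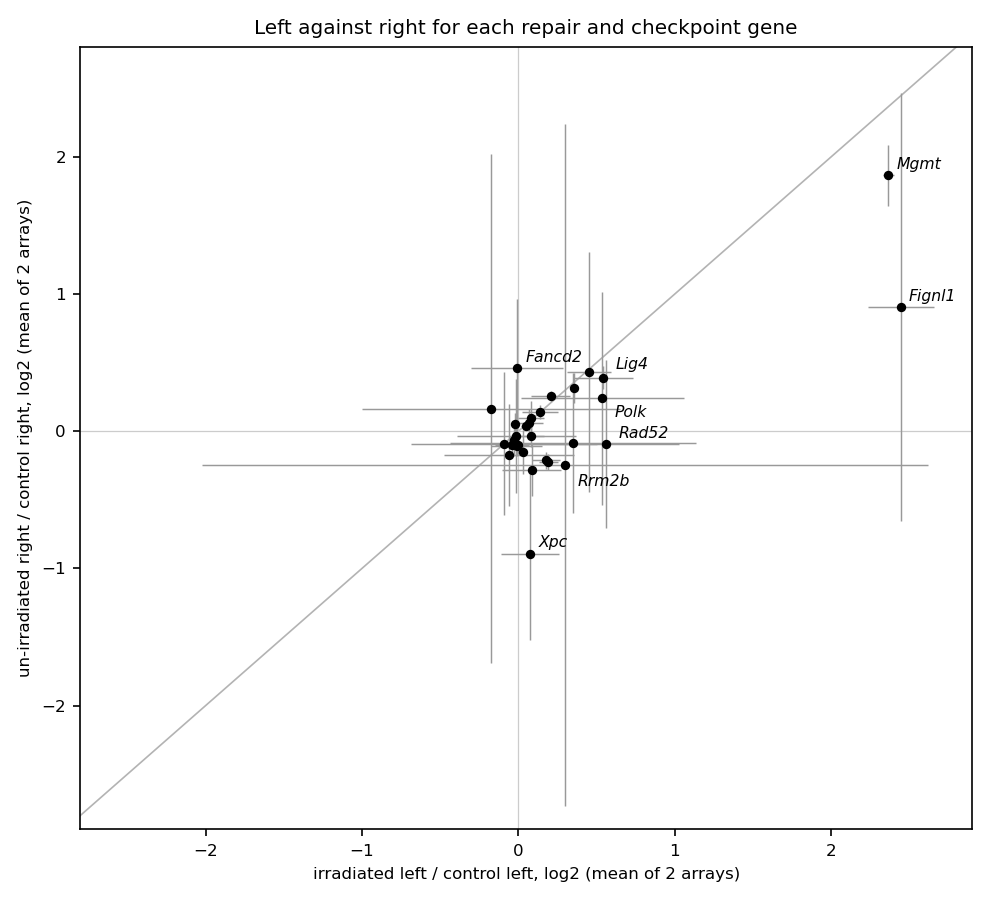
Mean log2 ratio on the irradiated left side (horizontal) against that on the un-irradiated right side (vertical) for the 30 genes, with bars reaching to each of the 2 arrays and a diagonal where the sides are equal. Mgmt lies at 2.37 and 1.86 with short bars, Fignl1 at 2.44 and 0.90 with a bar of 1.56 either way on the right, and most other genes lie near 0 on both sides.

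A longer list of 130 further genes of the same pathways, of which 101 were measured, was counted by the same rule. In the irradiated left striatum 2 of the 101 (1.98%) were higher than control, against 1.18% of all genes, and 2 (1.98%) were lower, against 1.03%. Another 70 (69.3%) stayed within 1.5-fold on both arrays, against 72.2% of all genes, so these shares were near those of all genes. Tyms, the thymidylate synthase that supplies thymidine for DNA synthesis, read 1.75 and 1.36 on the left arrays, and 0.63 and 0.58 on the right arrays. Polq, the polymerase of a more error-prone form of end joining, read 1.10 and 1.57 on the left arrays, and 2.50 and -2.46 on the right arrays. Tyms was thus above control on all 4 arrays, while Polq had a shared direction on the left alone. Ube2t, the conjugating enzyme that ubiquitinates Fancd2, read -0.73 and -1.20 on the left arrays, and -0.10 and 0.35 on the right arrays. Clspn (claspin), which Chek1 needs for its activation, read -1.01 and -0.59 on the left arrays, and -1.29 and -0.22 on the right arrays. Ube2t and Clspn were the 2 that passed downward, but neither of the 2 Clspn probes passed by itself, and on left array 2 they lay at 0.10 and -1.27.

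In the un-irradiated right striatum 1 of the 101 (0.99%) was higher than control, against 1.71% of all genes, and 0 were lower, against 1.46%. This was Parp3, a relative of Parp1 that acts in end joining, which read -0.12 and 0.75 on the left arrays, and 0.63 and 1.03 on the right arrays. In the difference between sides, Alkbh2, which like Mgmt reverses alkylation directly, Gen1, a nuclease that resolves recombination junctions, Neil3, a glycosylase, and Tyms were higher on the left, 4 of the 101 (3.96%) against 2.59% of all genes. Alkbh2 read 1.29 and -0.39 on the left arrays, and 0.15 and -1.13 on the right arrays. Its RefSeq mRNA probe was lower on the left in both orientations, so the call rests on its other probe. Gen1 read 1.08 and -0.22 on the left arrays, and 0.24 and -0.95 on the right arrays. Neil3 read 1.69 and -2.11 on the left arrays, and 0.47 and -3.35 on the right arrays. In these 3 genes the arrays of each side thus had opposite signs. Brcc3, a deubiquitinase of the complex that recruits Brca1 to breaks, and Ube2t were lower on the left, 2 of the 101 (1.98%) against 2.26% of all genes. Brcc3 read -0.62 and 0.33 on the left arrays, and 0.07 and 1.02 on the right arrays. The left mean was the higher one in 68 of the 101 genes (67.3%), against 52.5% of all genes. The median of the 101 genes was 0.03 on the left, -0.03 on the right and 0.09 for the difference, close to the 30 genes of the main list.

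Lists of other genes moved on these arrays beside Mgmt and Fignl1. Of 17 targets of p53 measured, 6 were higher and 0 lower on the left (median 0.35), and 5 were higher and 1 lower on the right (median 0.19). Among all genes 1.18% were higher on the left. Of 20 genes of proliferating cells, 0 passed on the left (median -0.29), and 1 was higher and 1 lower on the right (median -0.18). Markers that fell on the left were 5 of 8 for oligodendrocyte precursors (median -0.89), 3 of 11 for microglia (-0.34), 3 of 11 for meninges and fibroblasts (-0.48), 2 of 10 for astrocytes (-0.34), 1 of 12 for striatal projection neurons (-0.39) and 1 of 8 for cortical excitatory neurons (-0.06). No other marker list had a gene that passed downward on the left, where 1.03% of all genes did. On the right, where 1.46% of all genes passed downward and 1.71% upward, 7 of 12 markers of striatal projection neurons fell (median -0.71), while 3 of 8 cortical markers (0.48) and 4 of 11 meningeal markers (0.42) were higher. Also on the right, 1 of 8 precursor markers (-0.61) and 1 of 11 microglial markers (-0.10) fell, and 1 of 7 choroid plexus markers (0.12) was higher. The remaining lists held 1 gene that passed, the T cell gene Cd3e on the left. Their medians were -0.47 on the left and -0.42 on the right for 9 oligodendrocyte markers, -0.19 and -0.03 for 10 endothelial markers, and 0.17 and -0.15 for 7 blood markers. The part of these shifts in the values of the repair genes was not tested, and in whole tissue a change in the number of cells of a type and a change in RNA per cell cannot be told apart.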

How the data were processed

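Expression was measured in total RNA of rat striatum on 4 two-colour Agilent arrays, 2 per side with the dyes swapped. The authors used Agilent Feature Extraction 8.1, per the submitters' processing notes, with settings not named in those notes. Ratios were deposited without a stated log base, direction or centring, and were taken to be log10 of red over green, as that software reports them. As deposited, arrays 1 and 2 had median log10 values of 0.00418 and 0.00444 for the left side and 0.00832 and 0.0111 for the right side.

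Values were converted to log2, the sign of each array 2 was turned following the dye labels, and probes were averaged per gene, in Python 3.11.15 with pandas 2.3.3. No further normalization was applied. Of 43628 probes 23535 had 1 gene in the platform annotation, 48 had several and 20045 had none. For 23488 probes the gene was found in RefSeq, and its current RefSeq symbol was used. The 4 arrays were read as 1 replicate per side, whose number limits the precision, and no test was run. The code for the counting rule was checked on simulated ratios with known changes, which gives no error rate for these arrays. Thresholds, array choice, centring, probe choice, log base and direction were varied. Values on all 4 arrays are given for genes that passed in any comparison, for the highest and lowest of each role group of 3 or more, and for genes with probes more than 1.5-fold apart across 0. The genes and lists were chosen with earlier results of these data known.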

Additional observations from a re-analysis of the deposited data

Results flagged for a closer look

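H2ax and Ung differed in sign between the sides: both left arrays were above 0 and both right arrays below 0. For H2ax, left minus right was 0.39, with means of 0.18 ± 0.09 on the irradiated left and -0.21 ± 0.06 on the un-irradiated right. For Ung it was 0.42, with means of 0.19 ± 0.06 on the irradiated left and -0.23 ± 0.06 on the un-irradiated right. All of these values were within 1.5-fold, each gene had 1 probe, and the difference between the sides was not tested. With array 2 taken as already turned, H2ax would be -0.09 on the left and 0.06 on the right, and Ung 0.06 on both sides, so neither difference holds under that reading.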

How the results depend on the processing

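Mgmt and Fignl1 were counted as higher on the left at 1.3-fold and 2-fold, on either array alone, on the mean of the arrays, after centring, under each choice of probes and with values read as log2. They were not when array 2 was taken as already turned, where the 2 genes counted were Brca2 and Rrm2b and the mean of Mgmt was 0.03 on the left and 0.22 on the right. Of the 60 single-gene means, 30 per side, 22 stayed within their own ± under that reading, 37 with values read as log2, 54 with the probe whose arrays lay closest, 59 with RefSeq mRNA probes alone and 60 after centring or with the median over probes. The main counts were 2 genes on the left, 1 on the right and 0 for the difference among the 30, and 4 and 1 among the 101 further repair genes.

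At 1.3-fold the further repair genes counted were 7 on the left and 4 on the right, and 3 of the 30 (Rad52, Ung and Xpc) passed in the difference. At 2-fold the further genes counted were 2 on the left and 0 on the right. With 1.5-fold on the mean of the arrays they were 13 and 9, and the 30 gave 3 on the right (Fignl1, Mgmt and Xpc) and 3 in the difference (Fignl1, Rad52 and Xpc). Array 1 alone, where dye and treatment cannot be told apart, counted 6 of the 30 on the left, 5 on the right and 5 in the difference, and 24 and 14 further genes. Its medians were 0.21 on the left, 0.035 on the right and 0.13 for the difference, and its gaps between group medians were 0.82 and 0.50. Array 2 alone counted 8, 10 and 6 of the 30 and 15 and 18 further genes, with gaps of 0.67 and 0.83. For the right side, centring each array counted 2 further genes, RefSeq mRNA probes alone 2 with a median of 0.017 over the 30, and the probe with the closest arrays 2 with a median of 0.057 and a gap of 0.44. Read as log2, the values gave 0 further genes on either side, 0 of the 30 on the right (Mgmt at 0.56), gaps of 0.10 and 0.072 and a median difference of 0.029. Taken as already turned, they gave 3 of the 30 on the right (Brca2, Fignl1 and Rrm2b), 2 in the difference (Brca2 and Chek2), 3 further genes on the right, a right median of 0.060, a median difference of -0.028, gaps of 0.60 and 0.59, and 13 genes higher on the left than on the right, against 20 to 23 under the other alternatives. Wherever a count moved without fewer probes or arrays behind it, the cause was not tested.

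No paired analysis was possible because each side has 1 replicate and no result comes from a test. The 2 arrays of a side repeat the same labels, so variation between rats is not covered by any value here. The median distance of an array from the mean was 0.131 over the 30 genes and 0.166 over all genes on the left, and 0.144 and 0.188 on the right. Without intensities, signal over background could not be set against any value.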
